A study of Mus musculus with 72 samples.

Results

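Messenger RNA was counted in mouse liver for 9 genes that the lipid-sensing receptor PPARA is known to induce: Cyp4a10, Cyp4a14 and Cyp4a31 of omega-oxidation, Ehhadh and Acaa1b of peroxisomal beta-oxidation, Pex11a of peroxisome division, the thioesterase Acot1, the pantetheinase Vnn1 and the kinase Pdk4. They were chosen by symbol, through the Ensembl identifiers that the GENCODE M21 annotation pairs with these symbols, and the rule itself uses no measured value. All 9 had a row among the 51912 genes of the count table, and all 9 passed the low-count filter, as did 12712 genes in total. The libraries came from male wild-type C57BL/6J mice with a starting age of 43 to 49 days, kept in a cycle of 12 h light and 12 h dark. The feeding paradigms were incompletely adapted arrhythmic feeding, arrhythmic feeding, night-restricted feeding and ad libitum feeding, with 18 libraries each, 3 at each of 6 times from ZT02 to ZT22, 4 h apart (zeitgeber time, hours after lights on). All 4 groups shared strain, sex and water supply, and the sources used here do not give the feeding schedules or how adaptation was judged. The labels do not say that replicates were separate animals, so the p-values speak of spread among these libraries, which may be technical.

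PPARA is a nuclear receptor that binds DNA with RXR and is activated by fatty acids. In rodent liver its activation raises the enzymes that shorten very long chain fatty acids in peroxisomes, the cytochrome P450 enzymes that hydroxylate the far end of a fatty acid (omega-oxidation), and genes that favour fat over glucose as fuel, and peroxisomes multiply. Fasting is a known physiological trigger in the liver, which is why this gene set bears on a comparison of feeding schedules. The series title sets rhythmic food intake beside the liver clock as a source of daily rhythms in gene expression.

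Total counts per library ran from 6017962 to 7972905 under incompletely adapted, 5628818 to 7806974 under arrhythmic, 4342026 to 12286021 under night-restricted and 6701379 to 11167161 under ad libitum feeding. Levels are given as CPM, the count scaled to a common library total. The libraries differed in how their gene levels followed the GC content of transcript 3′ ends, here called the GC slope. Of the 5 libraries with the most extreme slope, 4 were replicate 1 of night-restricted feeding, at ZT02, ZT06, ZT18 and ZT22, and 1 was replicate 1 of incompletely adapted feeding at ZT10. Within a paradigm, libraries with the same replicate number deviated together across times, with a median correlation of 0.369 under night-restricted feeding and 0.151 to 0.272 under the other paradigms. The liver label was checked on hepatocyte markers, which summed to between 21450 and 39540 CPM in every library over the 6 markers found. Markers of bile duct cells summed to at most 11.6 CPM and those of adipocytes to at most 45.8 CPM. Other panels ran higher, up to 5507 CPM for erythroid cells, 1400 CPM for Kupffer cells, 361 CPM for endothelial cells and 243.5 CPM for stellate cells and fibroblasts. Intestinal and pancreatic acinar panels reached 212 and 262 CPM, with Fabp2 and Cela1 as their highest genes (means of 107 and 94.4 CPM). In bulk liver, fewer cells of a type and less RNA per cell cannot be told apart.

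The daily course was fitted as a 24 h wave per paradigm with edgeR's quasi-likelihood test, and p-values were adjusted over the 12712 genes by the Benjamini-Hochberg method, with a gene called at an adjusted p under 0.05. Range means the distance between peak and trough of the fitted wave in log2 units, given with its standard error (SE). Acot1 was the single member called rhythmic in all 4 paradigms. Pex11a was called under night-restricted feeding, and Pdk4, at levels near the detection floor, under 3 of the 4. Pdk4 passed the low-count filter only through libraries at ZT22, a time when it was high, so its calls are description.

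Acot1 encodes a cytosolic enzyme that splits acyl-CoA into free fatty acid and coenzyme A (ENSMUSG00000072949.6, GRCm38 chromosome 12, 84009490 to 84018371, plus strand). Pex11a encodes a peroxisomal membrane protein that drives elongation and division of peroxisomes (ENSMUSG00000030545.9, GRCm38 chromosome 7, 79735957 to 79743131, minus strand). The promoter windows of both are shown because these members carried the clearest daily courses, from RefSeq on GRCm38.p6 and read 5′ to 3′ along the gene's strand, 250 bases before to 50 bases after the annotated start. That of Acot1 lies at chr12:84009252-84009551 (plus strand) and that of Pex11a at chr7:79743082-79743381 (minus strand).
Acot1: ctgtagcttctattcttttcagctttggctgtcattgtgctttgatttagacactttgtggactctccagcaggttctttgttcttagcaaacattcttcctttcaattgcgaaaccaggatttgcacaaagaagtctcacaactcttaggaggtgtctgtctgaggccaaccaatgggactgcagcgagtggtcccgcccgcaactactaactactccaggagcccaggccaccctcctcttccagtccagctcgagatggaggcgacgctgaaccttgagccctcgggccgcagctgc
Pex11a: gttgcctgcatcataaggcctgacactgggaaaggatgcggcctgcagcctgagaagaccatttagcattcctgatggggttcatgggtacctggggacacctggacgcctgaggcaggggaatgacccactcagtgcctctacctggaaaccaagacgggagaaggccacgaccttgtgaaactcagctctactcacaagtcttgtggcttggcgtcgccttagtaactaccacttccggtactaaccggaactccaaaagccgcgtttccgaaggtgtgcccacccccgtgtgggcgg
Both windows are in lower case throughout because no searched motif was found in them. The motifs, searched on both strands, were AGGTCA, to which nuclear receptors bind, a direct repeat of AGGTCA with a spacer of 1 base as PPARA with RXR can bind, CACGTG, the E-box of the clock activators, and TTATGTAA, the D-box of the PAR-bZIP factors. Such windows were at hand for 5 of the 9 members (Ehhadh, Acaa1b, Pex11a, Acot1 and Pdk4), and none of the 4 motifs occurred in any of the 5. Over all 32851 promoter windows, 16.3% held AGGTCA, which is also part of the direct repeat, 0.04% the direct repeat, 7.15% CACGTG and 0.938% TTATGTAA. These counts describe the windows and bear on no factor's binding.

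Acot1 was low in the light and high in the dark under every paradigm. At ZT06 its 3 libraries held 76.2, 78.1 and 90.8 CPM under incompletely adapted feeding, 74.8, 85.9 and 98.2 CPM under arrhythmic feeding, 52.3, 78.2 and 85.4 CPM under night-restricted feeding, and 60.3, 67.4 and 80.6 CPM under ad libitum feeding. At ZT18 they held 147, 181 and 183 CPM under incompletely adapted, 142, 157 and 185 CPM under arrhythmic, 166, 173 and 260 CPM under night-restricted, and 144, 170 and 171 CPM under ad libitum feeding. In each paradigm the ZT18 values lay above all ZT06 values, with no overlap. ZT06 held the lowest group mean in every paradigm, so this describes the extremes and is no test beside the fitted wave.
The fitted range was 1.23 ± 0.21 with a peak at ZT 17.1 under incompletely adapted feeding (edgeR adjusted p = 0.00011). Under arrhythmic feeding it was 1.22 ± 0.21 with a peak at ZT 16.7 (edgeR adjusted p = 0.000263). Under night-restricted feeding it was 1.31 ± 0.21 at ZT 17.0 (edgeR adjusted p = 7.97e-06), and under ad libitum feeding 1.13 ± 0.21 at ZT 17.8 (edgeR adjusted p = 0.000375). The ranges lay within 1 SE of each other, and the rhythm difference was 0.15 ± 0.29 between arrhythmic and night-restricted feeding (edgeR adjusted p = 0.925; approximate 95% interval up to 0.72). Acot1 stayed called in all 4 paradigms without any 1 of the 72 libraries and under each of 9 other settings, the largest adjusted p being 0.0126.

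**Figure D1:**
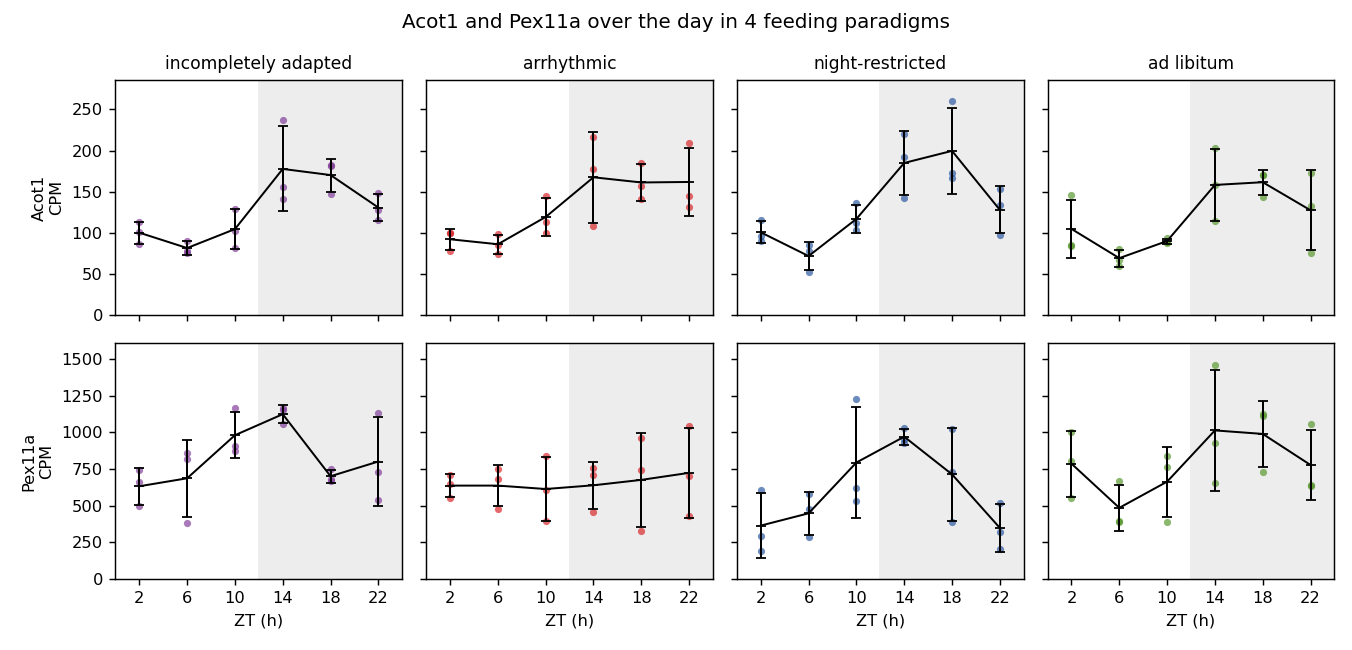
Levels of Acot1 and Pex11a in CPM (vertical axes) against ZT in hours (horizontal axes), 1 column of panels per paradigm. Points are libraries, the black line joins the means of 3 libraries with bars of 1 SD, and shading marks the dark phase. Acot1 is highest at ZT14 or ZT18 in all 4 columns, while the means of Pex11a span 613 to 723 CPM under arrhythmic and 347 to 969.5 CPM under night-restricted feeding.

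Pex11a had its largest daily range under night-restricted feeding, with a peak around lights off. At ZT14 its libraries held 924, 955 and 1029 CPM under night-restricted feeding, and at ZT22 they held 201, 321 and 520 CPM, with no overlap. These were the times of its highest and lowest group mean there, so the lack of overlap describes extremes and is no test. Under arrhythmic feeding the values at these same times were 453, 708 and 753 CPM at ZT14 and 427, 700 and 1041 CPM at ZT22, which overlap. Its own lowest mean was at ZT10, with 396, 605 and 837 CPM, which also overlaps its highest at ZT22.
Under incompletely adapted feeding ZT14 held 1054, 1151 and 1164 CPM against 496, 659 and 740 CPM at ZT02, and under ad libitum feeding ZT14 held 652, 924 and 1461 CPM against 390, 395 and 667 CPM at ZT06. The incompletely adapted values at these times did not overlap, and the ad libitum values did. These too were the times of highest and lowest group mean in each of the 2 paradigms.
The fitted range was 0.75 ± 0.28 under incompletely adapted feeding (edgeR adjusted p = 0.279) and 0.27 ± 0.28 under arrhythmic feeding (edgeR adjusted p = 0.854). It was 1.53 ± 0.28 with a peak at ZT 13.3 under night-restricted feeding (edgeR adjusted p = 0.000106), and 0.86 ± 0.28 under ad libitum feeding (edgeR adjusted p = 0.11). A call under 1 paradigm does not show that the paradigms differ. The rhythm difference itself, arrhythmic minus night-restricted, had a range of 1.42 ± 0.39 and missed the threshold (edgeR adjusted p = 0.0554), and it was called with DESeq2 (adjusted p = 0.0302). With the GC slope as a covariate it was 1.09 (adjusted p = 0.155). The 4 night-restricted libraries of extreme GC slope held 186 to 390 CPM of Pex11a, against 295 to 1230 CPM in the other 14 night-restricted libraries. The cause of the change under the GC covariate was not tested. The night-restricted wave of Pex11a itself stayed called without any 1 of the 72 libraries. It also stayed called under each of 9 other settings, among them the GC covariate and the fit without the 5 libraries of extreme slope (largest adjusted p 0.00672).

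Pdk4 encodes the kinase that switches off pyruvate dehydrogenase and so spares glucose (ENSMUSG00000019577.6, chromosome 6, 5483351 to 5496309, minus strand). It was counted with 0 to 12 reads per library, and 3, 3, 4 and 3 of 18 libraries had no read under incompletely adapted, arrhythmic, night-restricted and ad libitum feeding. It passed the low-count filter only through its 3 highest libraries, all at ZT22, with 1.54, 1.61 and 1.70 CPM. These came from incompletely adapted, arrhythmic and night-restricted feeding. The calls below therefore describe the courses and are no independent test. At ZT22 it held 0.636, 0.996 and 1.54 CPM under incompletely adapted, 0.68, 0.825 and 1.61 CPM under arrhythmic, 0.251, 0.614 and 1.70 CPM under night-restricted, and 0.112, 0.971 and 1.01 CPM under ad libitum feeding. At ZT14 it held 0.125, 0.134 and 0.146 CPM under incompletely adapted, 0, 0.145 and 0.384 CPM under arrhythmic, 0, 0.0814 and 0.166 CPM under night-restricted, and 0, 0.126 and 0.143 CPM under ad libitum feeding. The values at ZT22 exceeded all values at ZT14 in 3 paradigms, and under ad libitum feeding the 2 times overlapped. ZT22 held the highest group mean in those 3 paradigms, so this describes extremes and is no test.
The wave was called under incompletely adapted feeding with a range of 2.70 ± 0.80 at ZT 21.4 (edgeR adjusted p = 0.042), under night-restricted feeding with 3.60 ± 1.01 at ZT 22.4 (edgeR adjusted p = 0.00322), and under ad libitum feeding with 3.24 ± 0.87 at ZT 0.9 (edgeR adjusted p = 0.00779). Under arrhythmic feeding the range was 2.31 ± 0.83 at ZT 22 (edgeR adjusted p = 0.163). These ranges rest on single reads at the trough. The call under incompletely adapted feeding was lost without any 1 of 17 of the 72 libraries (adjusted p up to 0.126), and Pdk4 was called in none of the 4 paradigms when each time had its own level in place of a wave.

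Counted together, 2 of 9 members were called rhythmic under incompletely adapted feeding (Acot1 and Pdk4), where 3.63% of all tested genes were called, and 1 of 9 under arrhythmic feeding (Acot1), where 3.37% were called. Under night-restricted feeding 3 of 9 were called (Acot1, Pex11a and Pdk4), where 29.9% of all genes were, a share close to the background. Under ad libitum feeding 2 of 9 were called (Acot1 and Pdk4), where 7.48% were. Pdk4 entered these tests only through its ZT22 libraries, as given above, so the counts that include it are description. The median range over the 9 members was 0.43, 0.33, 0.80 and 0.59 under incompletely adapted, arrhythmic, night-restricted and ad libitum feeding, against 0.42, 0.43, 0.70 and 0.52 over all tested genes.
The other 6 members were not called in any paradigm. Vnn1 under night-restricted feeding came closest, with a range of 0.92 ± 0.33 (edgeR adjusted p = 0.0732), and it passed under a replicate block within each paradigm (adjusted p = 0.0307) and under a GC covariate (adjusted p = 0.0314). Next were Acaa1b under night-restricted feeding with 0.80 ± 0.31 (edgeR adjusted p = 0.0852) and Ehhadh under ad libitum feeding with 0.89 ± 0.32 (edgeR adjusted p = 0.144). The ranges of Cyp4a10, Cyp4a14 and Cyp4a31 lay between 0.17 and 0.71 in the 4 paradigms.

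**Figure D2:**
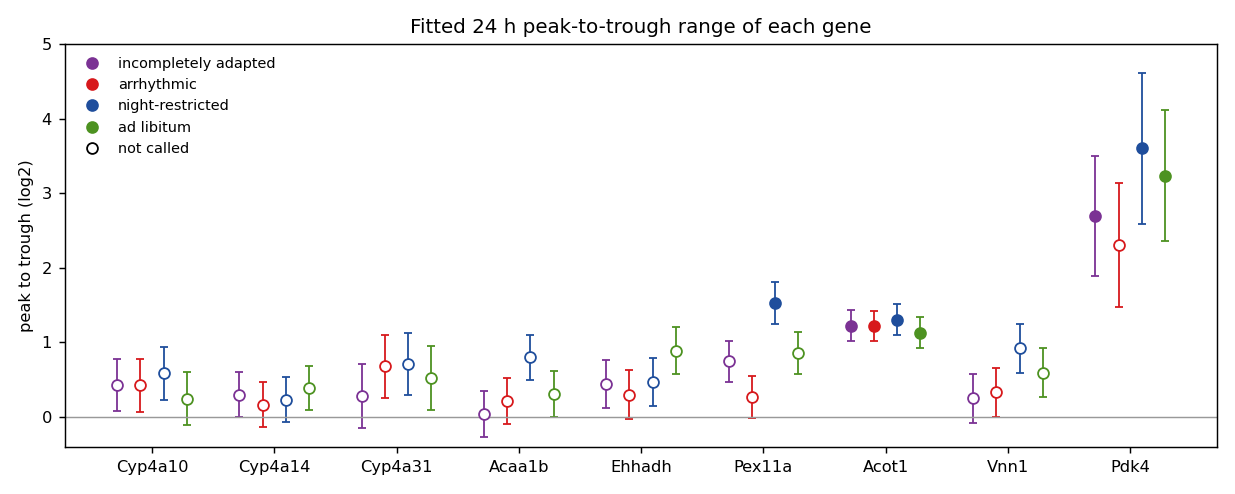
Fitted 24 h peak-to-trough range (log2, vertical axis) of each of the 9 genes, with bars of 1 SE, for the 4 paradigms in colour. Filled circles passed an adjusted p of 0.05 and open circles did not. Acot1 lies between 1.13 and 1.31 in all 4 paradigms, Pex11a between 0.27 and 1.53, and Pdk4 is high with wide bars.

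The rhythm itself was compared between paradigms by testing both wave terms at once. None of the 9 members was called in edgeR, where 0.614% of all genes were called for incompletely adapted minus night-restricted, 3.89% for arrhythmic minus night-restricted, 0% for incompletely adapted minus arrhythmic, 0% for night-restricted minus ad libitum and 0.0236% for arrhythmic minus ad libitum feeding. At an unadjusted p under 0.05 there was 1 member for arrhythmic minus night-restricted and 1 for night-restricted minus ad libitum (Pex11a in both), 1 for arrhythmic minus ad libitum (Ehhadh), and 0 for the other comparisons. DESeq2 called Pex11a for arrhythmic minus night-restricted feeding and 0 members in the other 4 comparisons. The comparisons share samples and are given side by side. The standard error of these differences was 0.29 for Acot1 and between 0.39 and 1.30 for the other members, which sets what was detectable.

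Mean level over the day differed in opposite directions for the 3 Cyp4a genes and for Acaa1b. Group means of the 3 Cyp4a genes were lower under incompletely adapted than under night-restricted feeding at 6 of 6 times, and those of Acaa1b were higher at 6 of 6. Set against ad libitum feeding, the night-restricted means of the 3 Cyp4a genes were higher at 6 of 6 times and those of Acaa1b lower at 6 of 6. These comparisons share the night-restricted libraries. The 6 times are not independent, because same-numbered libraries of a paradigm deviated together across times, and the 3 Cyp4a genes followed each other closely. How many of all genes had the same sign at 6 of 6 times was not counted, so these counts are description. The tests across libraries called 4 and 2 members in them, and none of these calls held when the same-numbered libraries of a paradigm were counted as 1 sample, as given beside each result.

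The 3 Cyp4a genes encode fatty acid omega-hydroxylases and lie next to each other on GRCm38 chromosome 4, Cyp4a14 at 115486200 to 115496142 on the minus strand (ENSMUSG00000028715.2), Cyp4a10 at 115518264 to 115533649 (ENSMUSG00000066072.13) and Cyp4a31 at 115563649 to 115579015 (ENSMUSG00000028712.12), both on the plus strand. Of the 50-base words in the last 500 bases of their transcripts, Cyp4a10 and Cyp4a31 shared 5.99%, so reads may in part be split between them. Cyp4a31 held 2.66, 5.47 and 8.33 CPM (lowest, median and highest of 18 libraries) under incompletely adapted, 3.10, 6.67 and 12.2 CPM under arrhythmic, 4.26, 8.12 and 28.1 CPM under night-restricted, and 1.94, 3.82 and 9.66 CPM under ad libitum feeding. Night-restricted libraries were the highest by median, and the groups overlapped. All 3 incompletely adapted libraries lay below all 3 night-restricted ones at 2 of 6 times, and all 3 night-restricted libraries lay above all 3 ad libitum ones at 3 of 6 times.
Cyp4a10 held 327, 465 and 681 CPM under incompletely adapted, 212, 485 and 820 CPM under arrhythmic, 201, 603 and 1072 CPM under night-restricted, and 148, 401 and 664 CPM under ad libitum feeding. Its night-restricted libraries spanned both the top and nearly the bottom of the whole range. Cyp4a14 held 1870, 2879 and 4125 CPM under incompletely adapted, 1742, 3206 and 4582 CPM under arrhythmic, 1675, 3544 and 5214 CPM under night-restricted, and 747, 2310 and 4353 CPM under ad libitum feeding. The groups overlapped for each of the 3 genes.

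Incompletely adapted minus night-restricted feeding called 4 of 9 members, 2 higher and 2 lower, where 18% of all genes were called (6.85% higher and 11.2% lower). Cyp4a31 fell by 0.99 ± 0.21 on the log2 scale (SE; edgeR adjusted p = 0.0015) and Cyp4a10 fell by 0.50 ± 0.18 (edgeR adjusted p = 0.0425, and 0.0161 to 0.107 without 1 library, lost in 22 of 72 such fits), while Cyp4a14 differed by -0.39 ± 0.15 without passing (edgeR adjusted p = 0.0578). Without the 5 libraries of extreme GC slope Cyp4a31 differed by -0.60 (adjusted p = 0.142) and Cyp4a10 by -0.20 (adjusted p = 0.673). The 4 night-restricted libraries of extreme slope held 696 to 1072 CPM of Cyp4a10 and 7.54 to 28.1 CPM of Cyp4a31, against 201 to 860 and 4.26 to 14.8 CPM in the other 14.
With same-numbered libraries summed, which leaves 3 sums per paradigm, the differences were -0.92 for Cyp4a31 (edgeR adjusted p = 0.441) and -0.45 for Cyp4a10 (edgeR adjusted p = 0.557).
Night-restricted minus ad libitum feeding called 2 of 9 members, where 1.62% of all genes were called and 0.724% called higher. Cyp4a31 rose by 1.16 ± 0.21 (edgeR adjusted p = 0.000405) and Cyp4a14 rose by 0.58 ± 0.15 (edgeR adjusted p = 0.0284, and 0.0113 to 0.0596 without 1 library, lost in 9 of 72 such fits), and Cyp4a10 differed by 0.55 ± 0.18 without passing (edgeR adjusted p = 0.0845). Without the 5 libraries of extreme GC slope Cyp4a31 was still called at 0.82 (adjusted p = 0.0228) and Cyp4a14, at 0.47, was not (adjusted p = 0.177). With same-numbered libraries summed the differences were 1.08 for Cyp4a31 (edgeR adjusted p = 0.603) and 0.59 for Cyp4a14 (edgeR adjusted p = 0.998).

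**Figure D3:**
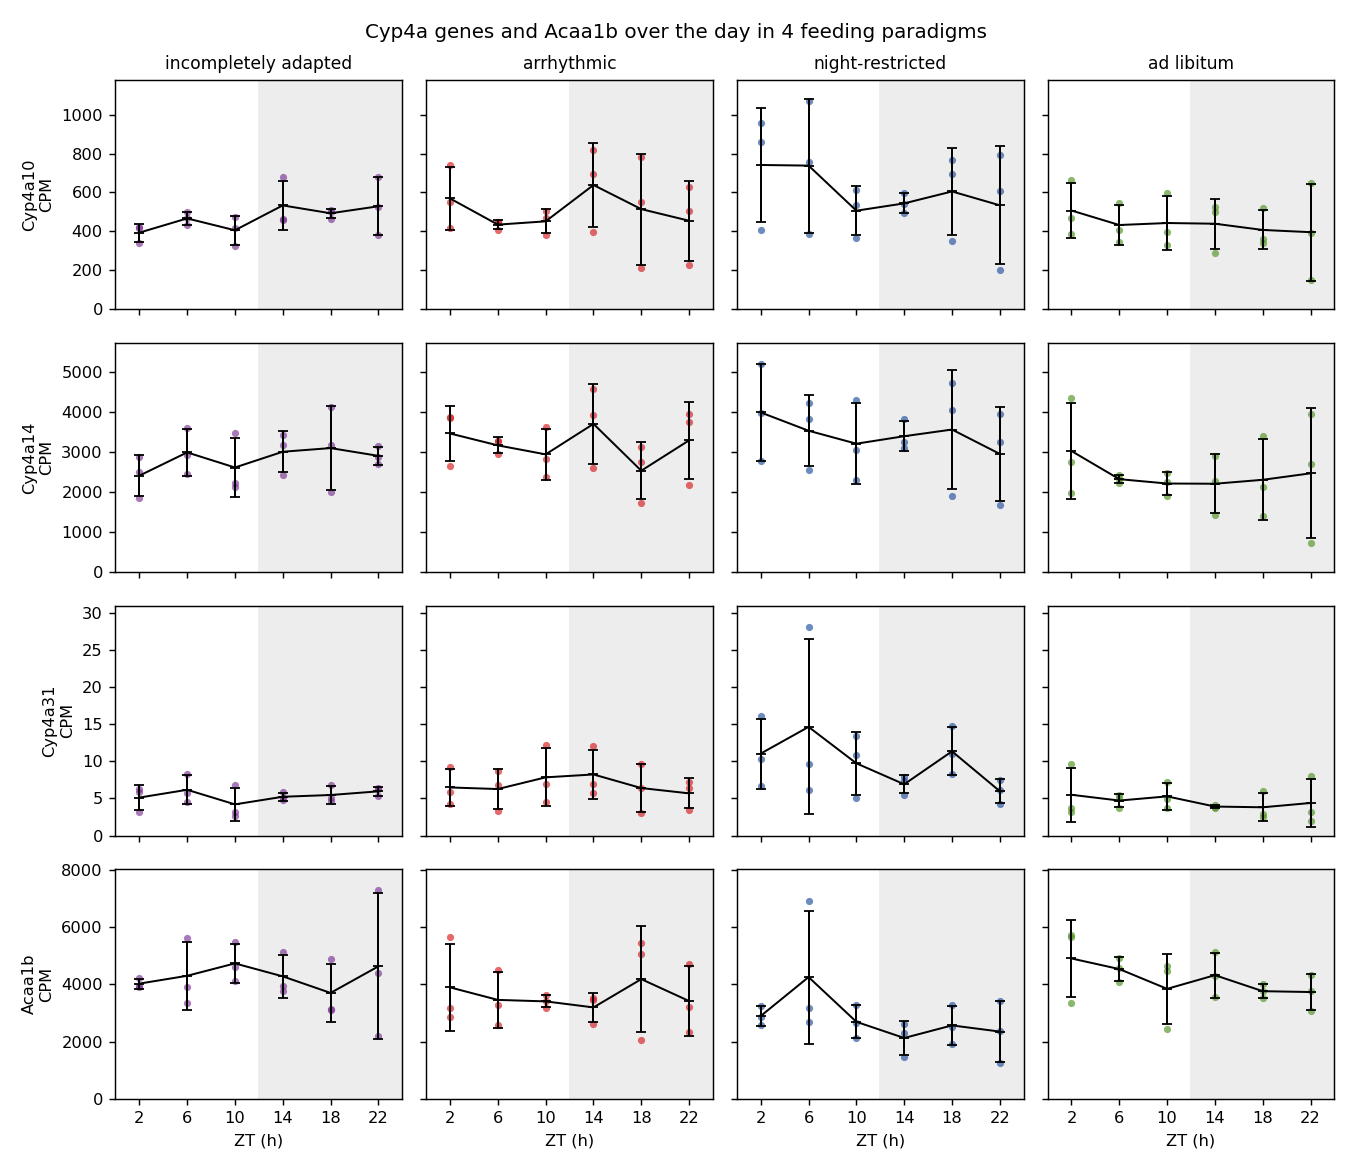
Levels of the 3 Cyp4a genes and Acaa1b in CPM (vertical axes) against ZT in hours, 1 column of panels per paradigm. Points are libraries, lines join the means of 3 with bars of 1 SD, and shading marks the dark phase. The night-restricted column has the highest Cyp4a medians and the lowest Acaa1b median, and at ZT06 a single library stands out there at 28.1 CPM of Cyp4a31 and 6927 CPM of Acaa1b.

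Acaa1b encodes a peroxisomal thiolase, which catalyses the last step of a beta-oxidation cycle (ENSMUSG00000010651.4, chromosome 9, 119148023 to 119157093, minus strand). It held 2206, 4034 and 7299 CPM under incompletely adapted, 2059, 3346 and 5657 CPM under arrhythmic, 1256, 2629 and 6927 CPM under night-restricted, and 2429, 4191 and 5741 CPM under ad libitum feeding. Night-restricted libraries were lowest by median. All 3 incompletely adapted libraries lay above all 3 night-restricted ones at 3 of 6 times, and all 3 night-restricted libraries lay below all 3 ad libitum ones at 3 of 6 times. The night-restricted maximum of 6927 CPM was 1 library, replicate 1 at ZT06, which is among those of extreme GC slope.
Acaa1b rose by 0.51 ± 0.15 in incompletely adapted over night-restricted feeding (edgeR adjusted p = 0.0186). It differed by -0.51 ± 0.15 in night-restricted minus ad libitum feeding without passing (edgeR adjusted p = 0.0659), and by 0.28 ± 0.15 in arrhythmic minus night-restricted feeding (edgeR adjusted p = 0.251). Without the 5 libraries of extreme GC slope all 3 differences were larger and called, at 0.81 (adjusted p = 0.000832), -0.82 (adjusted p = 0.000409) and 0.60 (adjusted p = 0.022). With same-numbered libraries summed none was called, at 0.55 (edgeR adjusted p = 0.509), -0.57 (edgeR adjusted p = 0.998) and 0.32 (edgeR adjusted p = 0.841).
Acaa1b shared 38.8% of its 50-base 3′ words with its paralogue Acaa1a, so reads may have been split between them. Acaa1a differed by -0.31 ± 0.14 in incompletely adapted minus night-restricted feeding (edgeR adjusted p = 0.0943), a value of the other sign that was not called.

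Pex11a rose by 0.44 ± 0.14 in incompletely adapted over night-restricted feeding (edgeR adjusted p = 0.0219), with 381, 783 and 1164 CPM (lowest, median and highest) under incompletely adapted and 186, 554 and 1230 CPM under night-restricted feeding. Its incompletely adapted mean was the higher at 5 of 6 times, and the groups overlapped at 4. The call was lost without the 5 libraries of extreme GC slope (0.32, adjusted p = 0.314) and with same-numbered libraries summed (0.31, edgeR adjusted p = 0.531). Arrhythmic libraries held 325, 690 and 1041 CPM and ad libitum libraries 389, 748 and 1461 CPM. In night-restricted minus ad libitum feeding Pex11a differed by -0.41 ± 0.14 without passing (edgeR adjusted p = 0.107).

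No member was called by edgeR in mean level for arrhythmic minus night-restricted feeding, where 6.92% of all genes were called. The nearest was Cyp4a31 at -0.61 ± 0.21 (edgeR adjusted p = 0.0585), the 1 member with an unadjusted p under 0.05, and the 1 that DESeq2 called. Of all 12712 tested genes, 3079 had an unadjusted p that low. For arrhythmic minus ad libitum feeding, where 2.1% of all genes were called, 0 members were called by edgeR or DESeq2. An unadjusted p under 0.05 was seen for 3 members (Cyp4a14 at 0.39, Cyp4a31 at 0.55 and Vnn1 at -0.36). Over all tested genes it was seen for 1782. For incompletely adapted minus arrhythmic feeding, where 0% of genes were called, no member was called by edgeR or DESeq2. None had an unadjusted p under 0.05, against 639 of all tested genes for this difference.
The 95% intervals of this last difference still reached from -0.50 to 0.20 for Cyp4a10 and from -0.07 to 0.53 for Acaa1b. The arrhythmic group lay between the night-restricted and ad libitum groups in fitted mean level for the 3 Cyp4a genes, Acaa1b and Pex11a, which is a description of the values and was not tested.

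**Figure D4:**
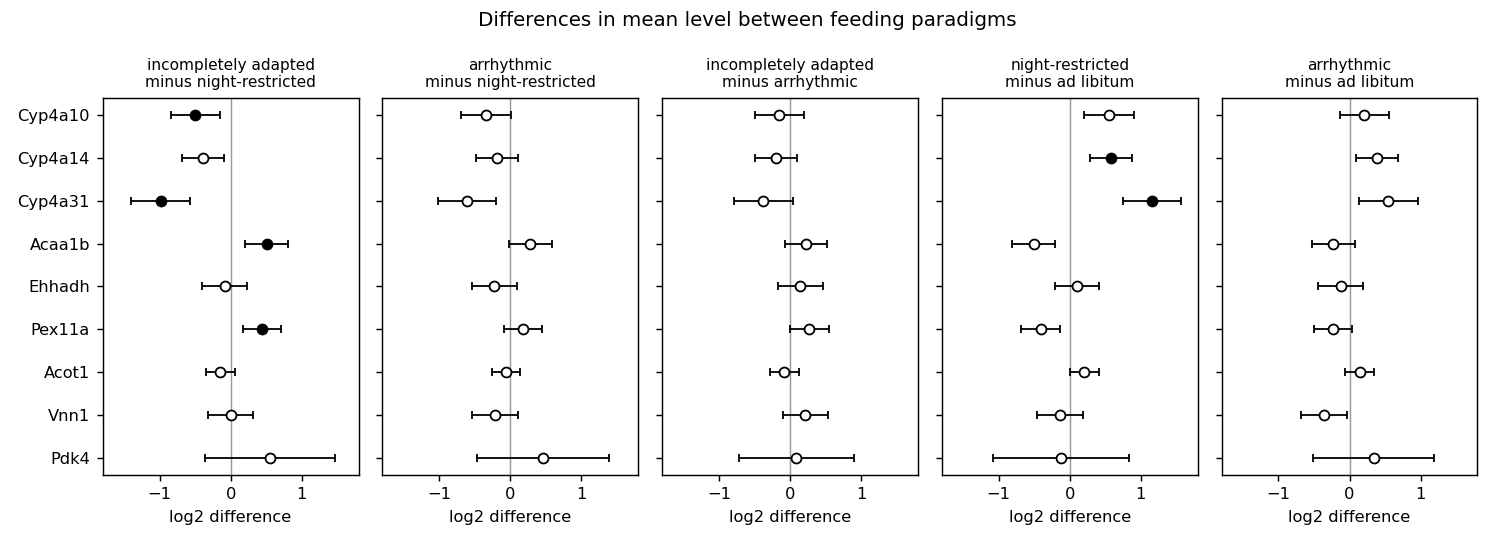
Difference in mean level over the day (log2, horizontal axes) for the 9 genes (rows) in 5 comparisons of paradigms. Circles are fitted differences and bars their approximate 95% intervals, and filled circles passed an adjusted p of 0.05. The Cyp4a genes lie left of 0 and Acaa1b and Pex11a right of 0 in the first panel, and on the other sides in the night-restricted minus ad libitum panel.

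Ehhadh encodes the bifunctional enzyme of the middle steps of peroxisomal beta-oxidation (ENSMUSG00000022853.6 in the table, chromosome 16, 21761287 to 21787807, minus strand). It was counted with 8 to 45 reads per library, and held 1.75, 3.32 and 5.70 CPM under incompletely adapted, 1.44, 3.24 and 5.55 CPM under arrhythmic, 1.70, 3.43 and 5.49 CPM under night-restricted, and 0.854, 3.91 and 5.91 CPM under ad libitum feeding. The groups overlapped almost wholly, and the largest of the 5 mean differences was -0.22 ± 0.16, for arrhythmic minus night-restricted feeding (edgeR adjusted p = 0.381).
Vnn1, which releases cysteamine from pantetheine (ENSMUSG00000037440.8, chromosome 10, 23894688 to 23905343, plus strand), held 23.7, 35.6 and 58.1 CPM under incompletely adapted, 10.2, 34.1 and 47.5 CPM under arrhythmic, 7.27, 33.0 and 69.1 CPM under night-restricted, and 22.2, 40.0 and 74.4 CPM under ad libitum feeding. At ZT06 under night-restricted feeding its 3 libraries held 43.9, 47.9 and 69.1 CPM, and at ZT22 they held 7.27, 25.2 and 33.6 CPM, with no overlap. These were the times of its highest and lowest group mean there, so this is no test. The largest of its mean differences was -0.36 ± 0.16, for arrhythmic minus ad libitum feeding (edgeR adjusted p = 0.294).
Acot1 differed in mean level by -0.14 ± 0.10 in incompletely adapted minus night-restricted (edgeR adjusted p = 0.301) and by 0.21 ± 0.10 in night-restricted minus ad libitum feeding (edgeR adjusted p = 0.303). Pdk4 differed by 0.55 ± 0.47 and -0.12 ± 0.49 in the same comparisons (edgeR adjusted p = 0.33 and 0.926).

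**Figure D5:**
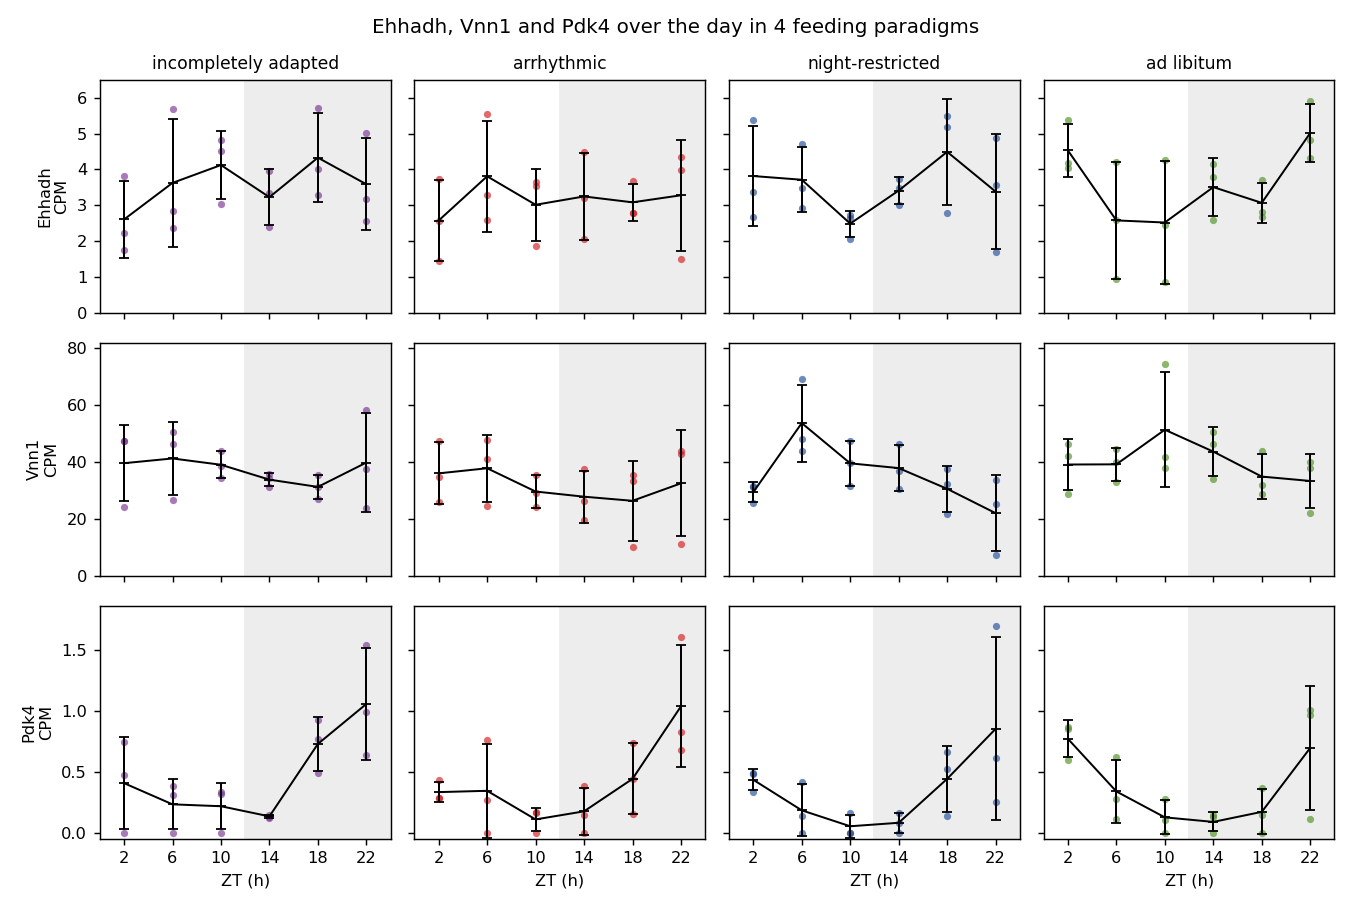
Levels of Ehhadh, Vnn1 and Pdk4 in CPM (vertical axes) against ZT in hours, 1 column of panels per paradigm. Points are libraries, lines join the means of 3 with bars of 1 SD, and shading marks the dark phase. Ehhadh libraries scatter between 0.854 and 5.91 CPM in all columns, and Pdk4 is highest at ZT22 in the first 3 columns and at ZT02 under ad libitum feeding, on at most 12 reads.

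At single times, arrhythmic minus night-restricted feeding called none of the 9 members by edgeR or DESeq2, where 0%, 0.378%, 0.11%, 0.0865%, 0% and 0.00787% of all genes were called in order of time from ZT02 to ZT22. At an unadjusted p under 0.05 there were 2 members at ZT06 (Cyp4a10 at -0.97 ± 0.46 and Cyp4a31 at -1.44 ± 0.52), 1 at ZT22 (Pex11a at 0.94 ± 0.36) and 0 at the other 4 times. Of all 12712 tested genes, 2766 were under that line at ZT06 and 1777 at ZT22, shares close to those of the members. At the other times between 594 and 1349 genes were. At ZT22 Pex11a held 427, 700 and 1041 CPM in arrhythmic and 201, 321 and 520 CPM in night-restricted libraries, which overlap.

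The spread between replicates lay above the median over all tested genes for most members. The within-group SD was taken on log2 CPM with a constant added to each CPM value. It was 0.54 for Cyp4a10, 0.48 for Cyp4a14, 0.53 for Cyp4a31, 0.41 for Ehhadh, 0.44 for Acaa1b, 0.51 for Pex11a and 0.51 for Vnn1. The median over all tested genes was 0.36, and the SD was 0.31 for Acot1 and 0.27 for Pdk4. The constant narrows the spread of genes at low CPM, so the values for Pdk4 and Ehhadh understate theirs. It also narrows the median over all tested genes, many of which are at low CPM. Members at high CPM are therefore not set against genes of like level. Over the 24 group means, which share libraries and paradigms, the Cyp4a genes followed each other with Pearson r from 0.849 to 0.878. Acaa1b was negatively correlated with Cyp4a14 and Cyp4a31 (r = -0.427 and -0.434), and Pex11a with Cyp4a31 (r = -0.468). Such values were not particular to these pairs. The most negative were Vnn1 with Pdk4 (r = -0.49) and with Acot1 (r = -0.475), and Acaa1b with Acot1 had r = -0.403.
Among 6460 other genes that averaged 10 CPM or more, the courses most like those of Pex11a and Pdk4 were those of Chpt1 (r = 0.904 over 24 group means) and Wrnip1 (0.88). Cyp4a31 was most like Rdh16f2 (0.81), Cyp4a10 most like Gm13573 (0.794), Cyp4a14 most like Cyp2b9 (0.792), Vnn1 most like Decr1 (0.776), Acaa1b most like Upf3b (0.773) and Ehhadh most like Lsr (0.619). Genes most like the mean course of the 9 included Rmnd1 (0.671), Trim7 (0.61), Vnn3 (0.585), Spg7 (0.583), Twnk, Sfxn1, Impa2, Cyp2b10 and Reep3 (0.568 to 0.577).

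The receptor and its partners came next. Ppara was called rhythmic under night-restricted feeding, with a range of 1.26 ± 0.40 and a peak at ZT 8.7 (edgeR adjusted p = 0.0304), and not under incompletely adapted (1.05 ± 0.39, edgeR adjusted p = 0.247), arrhythmic (0.78 ± 0.39, edgeR adjusted p = 0.539) or ad libitum feeding (0.59 ± 0.39, edgeR adjusted p = 0.571). Its rhythm difference, arrhythmic minus night-restricted, was 0.70 ± 0.56 (edgeR adjusted p = 0.623). The call was lost without night-restricted replicate 2 at ZT18 or replicate 3 at ZT06, ZT10 or ZT22 (adjusted p up to 0.138), and also with no low-count filter, without the 5 libraries of extreme GC slope and with time as a factor (adjusted p up to 0.137). Of 14 genes of PPARA, partners and coregulators, 1, 1, 5 and 1 were rhythmic under incompletely adapted, arrhythmic, night-restricted and ad libitum feeding, where 3.63%, 3.37%, 29.9% and 7.48% of all tested genes were, and the share under night-restricted feeding was near that background. The 1 called in all 4 was Ppard, which encodes a related receptor and is named here after its values were seen.

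Among 23 other genes of peroxisomal beta-oxidation and its substrate import, 2, 3, 12 and 3 were rhythmic under incompletely adapted, arrhythmic, night-restricted and ad libitum feeding, against 3.63%, 3.37%, 29.9% and 7.48% of all genes, with a median range under night-restricted feeding of 0.76 against 0.70 over all genes. Crot, the peroxisomal carnitine octanoyltransferase, and the thioesterase Acot4 were called in all 4 paradigms, and are named here after their values were seen. In incompletely adapted minus night-restricted feeding 5 of the 23 were called higher and 3 lower, where 6.85% of all genes were called higher and 11.2% lower, and the median difference was -0.05 against 0.02 over all genes. In night-restricted minus ad libitum feeding 1 was called higher and 4 lower, where 0.724% of all genes were called higher and 0.897% lower.
Of 18 peroxins and division factors, 1, 1, 10 and 1 were rhythmic in the same order of paradigms, against the same shares of all genes. The rhythm of 2 of them, Pex3 and Pex26, differed between arrhythmic and night-restricted feeding, where that of 3.89% of all genes did, and 1 was called higher and 1 lower in mean level in incompletely adapted minus night-restricted feeding, no more than the shares of all genes called.

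Of 11 genes of omega-oxidation and its partners, 10 were tested, and 1, 1, 2 and 1 were rhythmic under incompletely adapted, arrhythmic, night-restricted and ad libitum feeding, against 3.63%, 3.37%, 29.9% and 7.48% of all genes. Por, the electron donor of cytochrome P450 enzymes and also named after its values were seen, was rhythmic in all 4, with a range of 1.99 ± 0.21 under incompletely adapted, 2.01 ± 0.21 under arrhythmic, 2.51 ± 0.21 under night-restricted and 2.47 ± 0.21 under ad libitum feeding (edgeR adjusted p = 2.59e-09, 6.89e-10, 2.4e-13 and 2.61e-13). Cyp4a12a and Cyp4a12b, a pair of genes of the same family that were named after their values were seen, had the opposite sign to Cyp4a14 and Cyp4a31 in night-restricted minus ad libitum feeding. They fell by 0.71 ± 0.15 and 0.98 ± 0.14 (edgeR adjusted p = 0.00325 and 3.52e-06), and 2 of the 10 tested genes were called lower and 0 higher. With same-numbered libraries summed their adjusted p was 0.417 and 0.14.

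Of 22 genes of mitochondrial fatty acid oxidation and ketogenesis, 2, 2, 8 and 3 were rhythmic under incompletely adapted, arrhythmic, night-restricted and ad libitum feeding, against 3.63%, 3.37%, 29.9% and 7.48% of all genes, and the share under night-restricted feeding was near that background. Cpt1a, which admits fatty acids to mitochondria, had a range of 0.66 ± 0.15 under incompletely adapted, 0.64 ± 0.15 under arrhythmic, 1.59 ± 0.15 under night-restricted and 1.28 ± 0.15 under ad libitum feeding, all called. With time as a factor the calls under incompletely adapted and arrhythmic feeding were lost (adjusted p = 0.144 and 0.185), and that under arrhythmic feeding also with no low-count filter, with only the paradigms compared and without arrhythmic replicate 3 at ZT10. Acot2, the mitochondrial relative of Acot1, rose by 0.63 ± 0.18 in night-restricted over ad libitum feeding (edgeR adjusted p = 0.0483), a call lost without any 1 of 42 of the 72 libraries (adjusted p up to 0.114). That call was also lost under 5 of 9 other settings (adjusted p up to 0.998). These were no low-count filter, a replicate block, no libraries of extreme GC slope, only the paradigms compared, and same-numbered libraries summed.
Of 18 other PPARA-responsive liver genes 17 were tested, and 2, 2, 6 and 3 were rhythmic in the same order of paradigms, again near the background under night-restricted feeding. Angptl4, a secreted inhibitor of lipoprotein lipase, had ranges of 1.15 ± 0.35 (edgeR adjusted p = 0.123), 2.13 ± 0.35 (edgeR adjusted p = 5.49e-05), 1.77 ± 0.35 (edgeR adjusted p = 0.000338) and 1.27 ± 0.35 (edgeR adjusted p = 0.0367). The call under ad libitum feeding was lost without any 1 of 7 libraries of that paradigm (adjusted p up to 0.0963), and with no low-count filter and with time as a factor (adjusted p up to 0.248). Fgf21, a fasting hormone of the liver counted at a mean of 0.616 CPM, rose by 1.52 ± 0.45 in incompletely adapted over night-restricted feeding (edgeR adjusted p = 0.00972), where 4 of the 17 were called higher and 0 lower, against 6.85% and 11.2% of all genes. That call was lost with the GC slope as a covariate, without the 5 libraries of extreme slope and with same-numbered libraries summed (adjusted p up to 0.422).
Of 9 genes of pyruvate dehydrogenase control, the pathway of Pdk4, 0, 0, 3 and 0 were rhythmic under incompletely adapted, arrhythmic, night-restricted and ad libitum feeding, and of 9 genes of pantetheine and coenzyme A metabolism, the pathway of Vnn1, 0, 0, 2 and 0 were. Both counts under night-restricted feeding were near the 29.9% of all genes.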

How the data were processed

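Liver RNA was sequenced with a 3′ kit (QuantSeq, Lexogen), per the labels' protocols. The authors deposited raw read counts per gene, not normalized. Alignment used STAR 2.4.2a on mm10 or GRCm38.p5, per the submitters' processing notes. The sources used here do not name the counting tool, its strand setting or its annotation. With a 3′ kit and unknown strand use, levels were not compared between genes, and reads of overlapping or near-identical genes cannot be told apart. Of the gene identifiers, 51633 matched GENCODE M21, and the 279 others held 0.0107% of counts.

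The members and lists were chosen with earlier results of these data known. All 72 libraries entered 1 fit in edgeR 4.0.16 (R 4.3.3, limma 3.58.1) with TMM scaling, the default low-count filter over 24 groups, robust dispersion, and a mean, cosine and sine of a 24 h period per paradigm. Single times used a fit with 24 group means. Calls were at a Benjamini-Hochberg adjusted p of 0.05, and intervals are 1.96 SE either side. CPM values are counts scaled to the library total, with no TMM factor. The scripts were tested on simulated data. Named genes were the 9 members, a set of pathway genes named whatever their values, and per list the 2 of smallest p among those called for the rhythm difference of arrhythmic minus night-restricted feeding. Genes of like course were the 10 of highest r with the members' mean course and the 1 of highest r with each member. A few genes that these rules name are not reported here. Alternatives were DESeq2 1.42.0 tests or size factors, no filter, replicate blocks, a GC slope covariate, leaving out libraries, time as a factor, only the paradigms compared, and same-numbered libraries summed. The GC slope is the trend of a library's gene deviations on the GC content of the last 500 bases of transcripts. Depth is given with the results.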

Additional observations from a re-analysis of the deposited data

Results flagged for a closer look

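No member's rhythm was called different between paradigms in edgeR, and 4 genes of the pathway lists were. For Cpt1a the rhythm differed between arrhythmic and night-restricted feeding by a range of 0.998 ± 0.208 (edgeR adjusted p = 0.00879), with fitted ranges of 0.64 under arrhythmic and 1.59 under night-restricted feeding, and between incompletely adapted and night-restricted feeding by 0.99 ± 0.21 (edgeR adjusted p = 0.0205), with 0.66 under incompletely adapted feeding. With time as a factor the adjusted p of these Cpt1a differences rose to 0.105 and 0.19. The incompletely adapted minus night-restricted call was also lost with no low-count filter and with only the paradigms compared (adjusted p = 0.131 and 0.0581). It was lost without incompletely adapted replicate 1 at ZT22 or replicate 3 at ZT10, or without night-restricted replicate 2 at ZT10 or ZT18 (adjusted p up to 0.0594).

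For Pex3, which inserts peroxisomal membrane proteins, the rhythm differed between arrhythmic and night-restricted feeding by 1.19 ± 0.20 (edgeR adjusted p = 0.000688). Its fitted range was 0.61 with a peak at ZT 4.4 under arrhythmic and 0.80 with a peak at ZT 12.0 under night-restricted feeding, and the call held without any 1 of 72 libraries and under 9 other settings. For Pex26, a membrane anchor of the peroxisomal import machinery, the difference was 1.30 ± 0.32 (edgeR adjusted p = 0.0278), with ranges of 0.47 under arrhythmic and 1.68 under night-restricted feeding. It was lost without arrhythmic replicate 1 at ZT14 or night-restricted replicate 2 at ZT14 (adjusted p up to 0.0549), and also with no low-count filter and with time as a factor (adjusted p up to 0.0995). For Pecr, a peroxisomal enoyl-CoA reductase, the difference was 1.15 ± 0.30 (edgeR adjusted p = 0.0435), with ranges of 0.39 under arrhythmic and 0.76 under night-restricted feeding. The value of 1.15 is the range of the difference between the 2 waves. It takes in a shift of peak and is not the difference of the 2 ranges. The Pecr call was lost without any 1 of 21 of the 72 libraries and under 5 of 9 other settings (adjusted p up to 0.384).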

How the results depend on the processing

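Of the single-gene results followed through the alternatives, 6434 kept their call and 286 lost it. Most of these fits left out 1 library, often of a paradigm that the result does not use. Only differences in level have a sign, and 0 of them reversed. Rhythm results are ranges without a sign, so a shifted peak would not show in these totals. The larger moves in counts of members called are listed next. Except for the summed libraries, the calls over all genes under each setting are not given beside them. These counts therefore do not show that the members moved more than other genes. The same holds for the counts without 1 library and under the replicate block over all paradigms, given further below. With a replicate block within each paradigm, chosen after seeing the data, 5 members were rhythmic under night-restricted feeding (Acaa1b, Acot1, Pdk4, Pex11a and Vnn1), and 1 differed in rhythm (Pex11a) and 1 in mean level (Cyp4a31) for arrhythmic minus night-restricted feeding, and 5 in mean level for night-restricted minus ad libitum feeding. With time as a factor, or only the paradigms compared, 1 member was rhythmic under incompletely adapted and 1 under ad libitum feeding, and 2 (Acot1 and Pex11a) under night-restricted feeding. Pdk4 had an adjusted p of 0.0737 there with time as a factor and failed the low-count filter in the fit on only the paradigms compared. Without the filter, or without the 5 libraries of extreme GC slope, 1 was rhythmic under incompletely adapted feeding, and without the filter 3 differed in mean for incompletely adapted minus night-restricted feeding, without Cyp4a10. DESeq2 called 1 member (Pex11a) for the rhythm difference and 1 (Cyp4a31) for the mean of arrhythmic minus night-restricted feeding, and 4 for the mean of night-restricted minus ad libitum feeding. Under the fit with a GC slope covariate, 4 were rhythmic under night-restricted feeding (Vnn1 added), and the means called were 2 for incompletely adapted minus night-restricted, 1 (Acaa1b) for arrhythmic minus night-restricted and 1 (Cyp4a31) for arrhythmic minus ad libitum feeding. Without the 5 libraries they were 1 for incompletely adapted minus night-restricted and 1 for arrhythmic minus night-restricted feeding, Acaa1b in both. With only the paradigms compared they were 2 for incompletely adapted minus night-restricted and 1 for night-restricted minus ad libitum feeding, and without the filter 1 for the last. With same-numbered libraries summed, also chosen after seeing the data, 0 members were called in any mean comparison, and 4, 3, 1, 3 and 0 of all genes were called for arrhythmic minus night-restricted, incompletely adapted minus night-restricted, arrhythmic minus ad libitum, night-restricted minus ad libitum and incompletely adapted minus arrhythmic feeding. The cause of these changes was not tested.
Leaving out 1 library gave between 1 and 2 rhythmic members under incompletely adapted feeding, between 1 and 2 under arrhythmic feeding, between 3 and 5 under night-restricted feeding and 2 under ad libitum feeding, 0 to 1 for rhythm and 0 to 1 for mean of arrhythmic minus night-restricted, 3 to 5 for the mean of incompletely adapted minus night-restricted and 1 to 3 for that of night-restricted minus ad libitum feeding, and 0 in the other comparisons. The 5 rhythmic under night-restricted feeding came without night-restricted replicate 1 at ZT18, the 5 in mean level included Cyp4a14, which was called without any 1 of 7 libraries, and Pdk4 was called under arrhythmic feeding (adjusted p = 0.0472) without arrhythmic replicate 3 at ZT06. In night-restricted minus ad libitum feeding, the call of Cyp4a14 was lost without ad libitum replicate 2 at ZT18 or replicate 3 at ZT06 or ZT14. It was also lost without night-restricted replicate 1 at ZT02, ZT06, ZT14 or ZT18 or replicate 2 at ZT02 or ZT10. The call of Cyp4a10 in incompletely adapted minus night-restricted feeding was lost without any 1 of 12 incompletely adapted or 10 night-restricted libraries. That of Pdk4 under incompletely adapted feeding was lost without any 1 of 12 libraries of that paradigm or 5 others.
Same-numbered libraries of different paradigms at the same time had a median correlation of 0.0104, with 35.2% of pairs over 0.1, against -0.0021 for different numbers, so the numbers were not taken as pairs. With the replicate block over all paradigms, 2, 1, 3 and 2 members were rhythmic under incompletely adapted, arrhythmic, night-restricted and ad libitum feeding, and 3 differed in mean level for incompletely adapted minus night-restricted and 3 for night-restricted minus ad libitum feeding. The calls over all genes under this block are not given here, so the counts are not set against a background. Low read counts limit Pdk4, Ehhadh and Cyp4a31 most, and 3 libraries a group limit every single-time comparison. Whether the unnamed counting annotation covers the main 3′ ends of Pdk4 and Ehhadh was not tested, so their counts may miss transcripts.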

Other observations

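Members differed in which replicate number was low. Under night-restricted feeding replicate 3 was the lowest of the 3 libraries at 5 of 6 times for Cyp4a10, Cyp4a14, Cyp4a31, Acaa1b and Acot1. Pex11a was lowest in replicate 1 at 6 of 6 times and highest in replicate 3 at 5 of 6, and Ehhadh was lowest in replicate 1 at 5 of 6 and highest in replicate 3 at 5 of 6. Acaa1b was highest in replicate 1 at 5 of 6 times. What the replicate numbers stand for is not given in the sources used here, and their part in the mean-level results was not tested beyond the sums and blocks above.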
